A study of Mus musculus with 55 samples.

Results

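The 10 genes described here are encoded by mitochondrial DNA and give rise to core proteins of the respiratory chain and of the ATP synthase: mt-Nd1, mt-Nd2, mt-Nd4, mt-Nd5 and mt-Nd6 of complex I, mt-Cytb of complex III, mt-Co1, mt-Co2 and mt-Co3 of complex IV, and mt-Atp6 of complex V. They were chosen by name, through their Ensembl identifiers, from the 43432 genes of the count table, and all 10 were found there. They are 10 of the 13 protein-coding genes of mouse mitochondrial DNA, and all 10 passed the filter on low counts. Messenger RNA was sequenced from gonadal white fat of 6-month-old C57BL/6 mice, in 55 libraries. The mice were either wild type (WT) or carried, on 1 of their Htt copies, a knocked-in CAG repeat, named by its length as Q20, Q80, Q92, Q111, Q140 or Q175. Htt is the gene mutated in Huntington's disease, and every such animal was heterozygous, with 1 wild-type Htt copy. Both sexes were sampled for each genotype, which gives 14 groups, of 4 libraries apart from the 3 of WT females. WT animals were littermate controls, and WT and Q20 animals were housed together, whereas animals of each other genotype were housed with their own genotype, so that for those alleles housing and genotype cannot be told apart. After the library number, the labels of all WT libraries carry codes that start with Q20 and those of Q175 libraries codes that start with Q175. The sample titles and these codes do not say that WT and Q175 animals shared litters.

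The respiratory chain passes electrons from NADH and succinate to oxygen and pumps protons out of the mitochondrial matrix, and complex V uses their return to make ATP. Most subunits are encoded in the nucleus and imported, but the hydrophobic core subunits in the inner membrane are made inside the organelle. Mitochondrial DNA is transcribed from both strands as long precursors, which are cut at the tRNAs between the messages, so that the final level of each message also depends on its processing and stability. White adipocytes hold fewer mitochondria than brown adipocytes and use them for lipid turnover and the supply of carbon for fatty acid synthesis.

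Sequences of 3 kinds bear on how these genes can be read in a count table, and are given from the GENCODE M21 transcripts (GRCm38), 5′ to 3′. The opening bases of mt-Co2, mt-Co3 and mt-Atp6 are shown because chromosome 1 holds a copy of each that is identical over its whole length, so that the same letters belong to the member and to the copy. Capitals mark the first codon.
mt-Co2 and Gm28661: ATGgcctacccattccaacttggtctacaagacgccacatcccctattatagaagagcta
mt-Co3 and Gm28437: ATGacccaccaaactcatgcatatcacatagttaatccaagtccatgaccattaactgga
mt-Atp6 and Gm10925: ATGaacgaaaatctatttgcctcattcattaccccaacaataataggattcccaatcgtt
The copies matched the members at 681 of 681 bases for mt-Co2, 783 of 783 for mt-Co3 and 678 of 678 for mt-Atp6, with 0 mismatches. A read inside these stretches has no base that tells the member from the copy.

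The strand is shown by bases 31 to 90 of mt-Nd6 beside those of mt-Nd1 and mt-Cytb, with G in capitals.
mt-Nd6: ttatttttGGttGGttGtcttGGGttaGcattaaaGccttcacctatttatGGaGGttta
mt-Nd1: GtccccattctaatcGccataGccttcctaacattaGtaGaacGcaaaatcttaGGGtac
mt-Cytb: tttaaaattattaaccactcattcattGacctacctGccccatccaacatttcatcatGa
mt-Nd6 is the only member read from the other strand. Its transcript held 28.1% G and 5.97% C, whereas the other 9 members held 8.0% to 16.1% G and 23.8% to 27.7% C.

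Neighbouring genes also share bases, and mt-Nd4, mt-Cytb and mt-Co3 end on a single T after whole codons. The last 30 bases of these 3 members are shown with that T in capitals; in mitochondrial messages such an end is completed to a stop codon by the poly(A) tail.
mt-Nd4: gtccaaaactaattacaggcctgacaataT
mt-Cytb: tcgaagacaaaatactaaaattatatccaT
mt-Co3: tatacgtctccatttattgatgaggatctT
The longest shared stretch lies between mt-Atp8, which is no member, and mt-Atp6, with 43 bases.
mt-Atp8 and mt-Atp6: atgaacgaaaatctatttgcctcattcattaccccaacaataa
mt-Nd5 and mt-Nd6 overlap on opposite strands by 14 bases. No source used here says whether the counting used strand, so how it assigned reads that reach into such overlaps is not known. The count of mt-Nd6 was a whole number in 55 libraries and that of mt-Nd5 in 0.

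Libraries totalled 35094442 to 51363637 counts (median 42009365), and a single library held between 38116 and 2576850 counts for any member, so that counting error was small beside the spread between libraries. The 12 adipocyte markers together gave 4980 to 52400 CPM (counts scaled to a common library size) and Adipoq, the adiponectin gene, 454 to 5100 CPM in every library. Ucp1, which defines brown and beige adipocytes, did not exceed 7.84 CPM and was at 0 in some libraries. Htt itself was at 66.1 ± 9.07 CPM in WT (SD, n = 7) and 57.4 ± 2.74 CPM in Q175 (SD, n = 8), which does not test the inserted repeat. Among the Q140 libraries, 2 went against their sex labels: Ddx3y, a Y-linked gene, was at 76.6 CPM in the library labelled female 1 and at 0.047 CPM in the library labelled male 4. Their sexes are kept as labelled. Xist, an RNA of the inactive X chromosome, gave a mixed signal in WT male 3 and Q111 male 1. It was at 27.6 and 15.3 CPM there, with Ddx3y at 43.6 and 60.5 CPM. In the other males apart from Q140 male 4, Xist did not exceed 0.694 CPM. The cause of the mixed signal was not tested. The library numbers in the labels run on without a gap, apart from that of Q20 female 2. They are divided here where the genotypes change, and no label names this division as a batch. It gives a run of 39 libraries, of Q20, Q80, Q92, Q111 and Q140 animals. A run of 15 holds all WT and Q175 animals, and Q20 female 2 is a set of its own. The mean of Rn7s1, a signal recognition particle RNA, was 54.6, 1.04 and 1440 CPM in these 3 sets. Q175 against WT therefore stays within a run, while Q175 against Q20 and Q20 against WT cross runs, where genotype and run cannot be told apart.

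The members were among the most abundant RNAs of the tissue. Together they took 9.43 ± 2.27% of all counts (SD, n = 55 libraries), with a lowest library of 5.47%, a median of 9.41% and a highest of 14.6%. Per length, in the FPKM values the authors deposited (fragment counts scaled by transcript length and library size), mt-Co1 stood first of all genes with a mean level of 23200 ± 6080 FPKM (SD, n = 55). It encodes the catalytic subunit of complex IV. mt-Cytb, cytochrome b of complex III, followed at 12600 ± 3120 FPKM. The remaining members lay at 8140 ± 2100 FPKM for mt-Co3, 7470 ± 1710 for mt-Co2, 7140 ± 1700 for mt-Nd4, 6770 ± 1950 for mt-Atp6, 6500 ± 1540 for mt-Nd1, 4560 ± 1110 for mt-Nd2, 3110 ± 724 for mt-Nd6 and 3020 ± 667 for mt-Nd5. The highest nuclear-encoded subunit, Atp5f1b of the complex V head, had a mean of 777 FPKM.

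The order of some neighbours held in every library and that of others did not. mt-Co1 exceeded mt-Cytb, mt-Cytb exceeded mt-Co3, and mt-Nd1 exceeded mt-Nd2 in 55 of 55 libraries. mt-Nd2 exceeded mt-Nd6 in 54, mt-Co3 exceeded mt-Co2 in 46, mt-Nd4 exceeded mt-Atp6 in 42 and mt-Co2 exceeded mt-Nd4 in 39. mt-Nd6 exceeded mt-Nd5 in 34 of 55 libraries and mt-Atp6 exceeded mt-Nd1 in 29, so that neither pair kept a clear order.

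The copies on chromosome 1 change this order. Gm28437, Gm28661 and Gm10925 held on average 303000, 278000 and 270000 counts per library, which was, in the median library, 111% of the count of mt-Co3, 128% of mt-Co2 and 138% of mt-Atp6. With the copy added, the levels were 17200 ± 4420 FPKM for mt-Co3, 17000 ± 3840 for mt-Co2 and 16100 ± 4590 for mt-Atp6 (SD, n = 55). Each of these sums lies between the mean levels of mt-Cytb and mt-Co1. The levels of mt-Co2, mt-Co3 and mt-Atp6 are therefore uncertain by more than their own size, and their place in the order depends on where the authors' counting put shared reads. In total, 11 pseudogene rows matched a mitochondrial gene at 95% identity or more over at least 100 bases. The copies of mt-Nd4 and mt-Co1, Gm28439 and Gm29216, held a median of only 0.827% and 2.41% of the member's counts. Counts were whole numbers in all 55 libraries for mt-Nd1, mt-Nd6 and mt-Cytb, and in 0 to 6 libraries for the other 7 members, where a count within 1e-06 of a whole number was taken as whole.

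**Figure D1:**
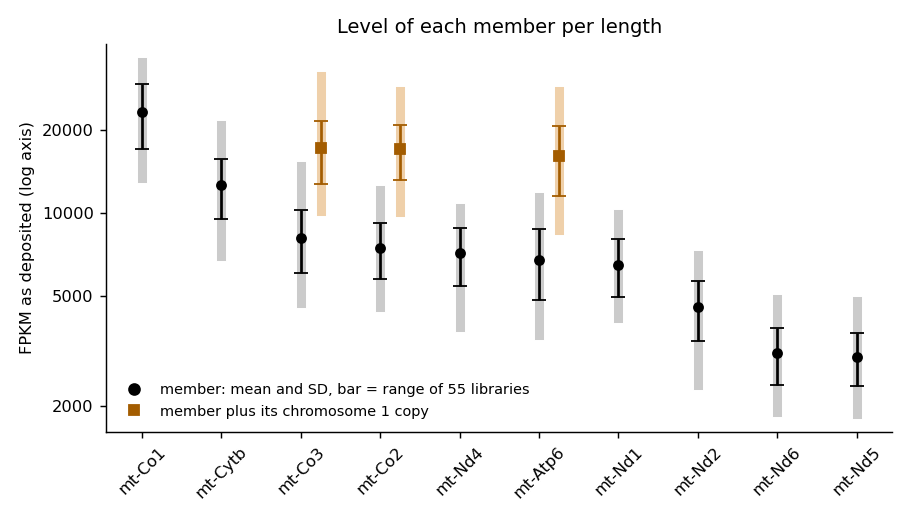
Level of each member per length in the deposited FPKM values (log axis), with the mean and SD over 55 libraries in black and the range as a grey bar. Squares add the identical copy on chromosome 1. mt-Co1 is highest at a mean of 23200 FPKM, and mt-Co3, mt-Co2 and mt-Atp6 rise to means between 16100 and 17200 FPKM when the copy is added.

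The members moved together across libraries. Over the 55 libraries Pearson's r between the log2 CPM of any pair of members lay between 0.806, for mt-Nd5 with mt-Co3, and 0.978, for mt-Nd4 with mt-Co1. These points share library, depth and scaling, and the values describe the set only. The 6 lowest of the 45 pairs all held mt-Nd5, whose product is a proton-pumping subunit of complex I. The coefficient of variation of CPM ranged from 27.1% for mt-Nd5 to 36.5% for mt-Atp6, and the highest library exceeded the lowest by 3.23 times for mt-Nd5 and 4.87 times for mt-Atp6.

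The genes outside mitochondrial DNA whose log2 CPM ran closest to the members' mean were mostly copies of mitochondrial genes. Among the 8 with the highest r were Gm28661 (0.983), Gm10925 (0.977), Gm28437 (0.972), Gm28438 (0.946), Gm13341 (0.898) and Gm10222 (0.885). The other two were Tmed2 (0.912), which encodes a protein of vesicles between endoplasmic reticulum and Golgi, and Btf3l4 (0.886). The 77 nuclear-encoded subunits of complexes I to V had a median r of 0.772, from 0.254 for Atp5g1 to 0.862 for Ndufa5, against a median of -0.115 over all tested genes.

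All 10 members were lower in Q175 than in WT fat. Together they took 7.32 ± 1.03% of counts in Q175 (SD, n = 8) and 10.9 ± 2.14% in WT (SD, n = 7). The Q175 females stood at 8.37%, 8.33%, 7.97% and 8.25%, and the Q175 males at 7.13%, 6.02%, 6.41% and 6.11%. The WT females stood at 13.4%, 9.28% and 11.8%, and the WT males at 6.97%, 11.6%, 12.4% and 11.0%. Within each sex every Q175 library was below every WT library, except that WT male 1, at 6.97%, lay below Q175 male 1. Each fold change below is from edgeR's quasi-likelihood test on counts and averages the difference in females with that in males, with adjusted p taken over all 21113 genes. In bulk tissue, fewer cells of a type and less RNA per cell cannot be told apart.

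**Figure D2:**
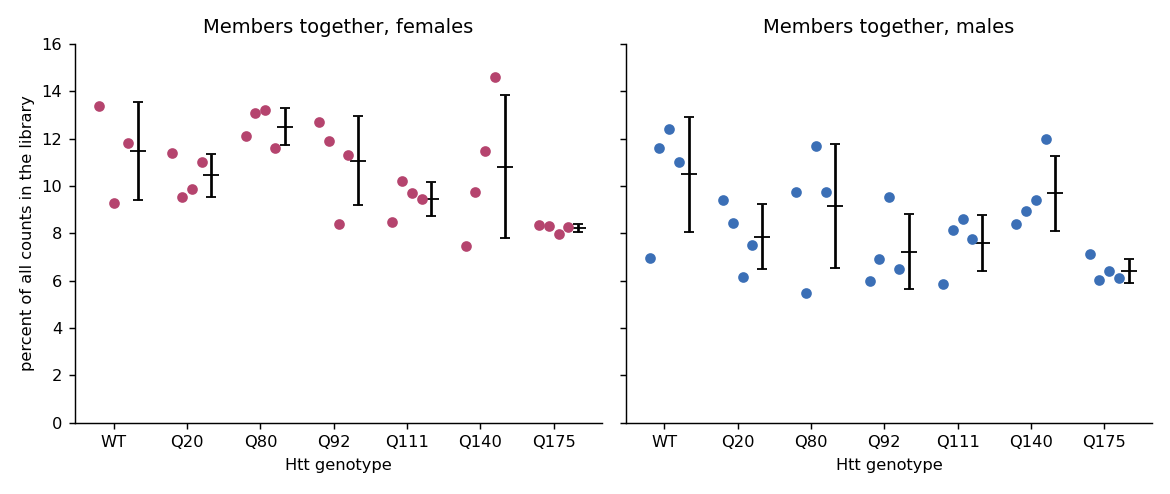
Share of all counts taken by the 10 members, in percent, for each library of each Htt genotype, females left and males right, with the group mean and SD beside the points. The Q175 females lie between 7.97% and 8.37%, below all 3 WT females, and WT male 1 at 6.97% is the only WT library among the Q175 males.

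Of the complex I genes, mt-Nd1, which forms part of the quinone-binding core, showed the largest difference on the log2 scale. mt-Nd1 was at 4800, 4840, 4460 and 4830 CPM in Q175 females against 8780, 6880 and 8620 in WT females, and at 4300, 3960, 3580 and 3780 CPM in Q175 males against 4590, 8200, 9660 and 8150 in WT males. The groups did not overlap within either sex. Its log2 fold change was -0.87 ± 0.18 (SE; 0.546 of WT; adjusted p = 0.00165). mt-Nd6, the message from the other strand, ranged over 1020 to 1300 CPM with a median of 1190 in Q175 and over 1250 to 2570 CPM with a median of 2220 in WT, a log2 fold change of -0.83 ± 0.18 (adjusted p = 0.00293). mt-Nd4, mt-Nd2 and mt-Nd5 encode the proton-pumping arm. mt-Nd4 was at 5240 to 9330 CPM in Q175 and 7330 to 14600 CPM in WT, and fell by 0.75 ± 0.19 on the log2 scale (adjusted p = 0.00752). mt-Nd2 was at 2430 to 4700 CPM in Q175 and 3470 to 6820 CPM in WT, and fell by 0.7 ± 0.19 (adjusted p = 0.012). Over both sexes these ranges overlap. mt-Nd5 had the smallest difference, from a WT median of 7720 CPM (4410 to 8870) to a Q175 median of 4500 CPM (3840 to 5640), a log2 fold change of -0.66 ± 0.17 (adjusted p = 0.0109).

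mt-Cytb, the only member in complex III, was at 7020 to 12000 CPM in Q175 with a median of 9970, and at 10500 to 19900 CPM in WT with a median of 16800. Its log2 fold change was -0.8 ± 0.2 (adjusted p = 0.00725), and the ranges of both genotypes overlapped only between WT male 1 and the 4 Q175 females. Among the complex IV genes, mt-Co1 ranged over 18100 to 32200 CPM with a median of 26200 in Q175 and over 26700 to 55500 CPM with a median of 42200 in WT. Its log2 fold change was -0.82 ± 0.19 (adjusted p = 0.00413). mt-Co2, which receives electrons from cytochrome c, was at 2840 to 4180 CPM in Q175 and 3660 to 7380 CPM in WT, a log2 fold change of -0.8 ± 0.18 (adjusted p = 0.00384). mt-Co3 was at 3060 to 5150 CPM in Q175 and 4580 to 9700 CPM in WT, a log2 fold change of -0.83 ± 0.19 (adjusted p = 0.00364). In each of these 3 genes the low end of WT was WT male 1. mt-Atp6 encodes a subunit of the proton channel of complex V. It was at 4150, 4110, 3780 and 4030 CPM in Q175 females against 7330, 4860 and 7270 in WT females, and at 3080, 2340, 2530 and 2310 CPM in Q175 males against 3390, 5640, 5860 and 5750 in WT males, with no overlap within a sex. Its log2 fold change was -0.85 ± 0.2 (adjusted p = 0.00579). With the counts of the copies added to their members, 10 of 10 members were again called, beside 10.4% of all genes.

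The median log2 fold change of the 10 members was -0.81, beside 0.0094 over all genes tested, of which 10.4% were called in either direction and 7.1% as lower. All 3 protein-coding mitochondrial genes outside the set also had negative values, with mt-Nd4l called (-0.64 ± 0.19, adjusted p = 0.0257) and mt-Nd3 (-0.64 ± 0.24, adjusted p = 0.0739) and mt-Atp8 (-0.43 ± 0.24, adjusted p = 0.271) not called. In limma on log2 FPKM with 0.1 or with 1 added, 5 of 10 members were called, beside 11.2% and 11.3% of all genes. With the lane code of the labels as a factor 0 of 10 were called, at log2 fold changes between -0.53 and -0.72, and calls over all genes fell to 1.98%. Equal lane codes can stand for different lanes, since Q20 male 4 and Q175 male 3 carry the same lane and index code. That fit, over all 55 libraries, may therefore have merged separate lanes. WT and Q175 were spread unevenly over lanes 5 to 8, and the members' share within them was 7.97% in Q175 and 12.4% in WT in lane 5, 8.33% and 9.28% to 13.4% in lane 6, 6.02% to 8.25% and 6.97% in lane 7, and 7.13% to 8.37% and 11.0% in lane 8. These values pool the sexes, and on them Q175 was below WT in lanes 5, 6 and 8. In lane 7 the Q175 males, at 6.02%, 6.41% and 6.11%, lay below the single WT library, WT male 1 at 6.97%. Only Q175 female 4, at 8.25%, lay above it. Lane 5 set a Q175 female against a WT male, and all WT females were in lane 6, so that lane and sex are mixed here.

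Taken in each sex, the difference was below 0 for every member. In females the log2 fold changes ran from -0.51 to -0.77, and edgeR called 0 of 10, where 0.199% of all genes were called; 8 of 10 had an unadjusted p under 0.05 beside 12.9% of all genes. DESeq2 called 0, beside 2.67% of all genes, and limma-voom with quality weights called 10, beside 19.7% of all genes. In females all Q175 libraries lay below all WT libraries for 9 members, the exception being mt-Nd2, as 13.1% of all genes did. In males the values ran from -0.81 to -1.01, and 7 members were called, where 1.76% of all genes were, 1.48% as lower. mt-Nd2 (adjusted p = 0.0548), mt-Cytb (adjusted p = 0.0568) and mt-Nd5 (adjusted p = 0.0611) missed the threshold. DESeq2 called all 10 in males, beside 5.8% of all genes, and limma-voom with quality weights all 10, beside 34.3%. In males all Q175 libraries lay below all WT libraries for 7 members, as 11.2% of all genes did, and over both sexes pooled this held for 0 members beside 2.84% of genes. The count in males fell to 0 without any one of Q175 males 1, 2, 3 and 4 or WT males 2, 3 and 4, and in these fits 0 to 90 of all genes were called in place of 372. It was 10 without WT male 1, where 1257 of all genes were called. The difference between the male and the female change was -0.14 to -0.4 on the log2 scale, with unadjusted p between 0.3 and 0.705, and 0 members were called by edgeR, DESeq2 or limma-voom, where edgeR called 0.0284% of all genes and 2.36% had an unadjusted p under 0.05.

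Markers of other cell types differed between the same groups. Of the 10 macrophage markers 5 rose in Q175, among them Itgam (1.22 ± 0.26 on the log2 scale, adjusted p = 0.00227) and Mrc1 (0.91 ± 0.19, adjusted p = 0.00242), and their sum was 1180 to 1390 CPM in Q175 and 489 to 1450 CPM in WT. Of the 8 progenitor markers 6 rose, and their sum was 2240 to 2860 CPM in Q175 and 1140 to 2670 CPM in WT. Of the 12 adipocyte markers 0 were called by edgeR at a median of -0.37, and their sum was 20800 to 34100 CPM in Q175 and 33400 to 44700 CPM in WT. The 5 erythroid markers had a median of -0.51 with 0 called, and in males their sum was 815 to 989 CPM in Q175 and 1580 to 2450 CPM in WT, without overlap, while in females it was 436 to 1000 CPM and 493 to 821 CPM. The 8 brown and beige markers summed to 21.3 to 71.8 CPM in Q175 and 19.1 to 83.2 CPM in WT, with 0 called. The markers of epididymis and testis summed to 897, 498, 1700 and 2840 CPM in the 4 Q175 males and to no more than 26.6 CPM in any WT library. Without the libraries at 100 CPM or more of these markers, which leaves no Q175 male, a fit with genotype and sex as terms called 8 of 10 members, beside 10.4% of all genes. The part of the other cell types in the members' difference was not tested.

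Nuclear-encoded subunits were lower as well, and the members were compared with them. Of the 77, 58 fell in Q175 against WT and 0 rose, at a median log2 fold change of -0.54. By complex, 31 of 36 fell in complex I, 2 of 4 in complex II, 4 of 9 in complex III, 11 of 13 in complex IV and 10 of 15 in complex V. Uqcrh, the hinge subunit of complex III, fell by 0.82 ± 0.14 on the log2 scale (adjusted p = 0.000413) and Ndufa2 of complex I by 0.75 ± 0.14 (adjusted p = 0.000849). Complex II, which has no mitochondrially encoded subunit, had Sdhd at -0.56 ± 0.17 (adjusted p = 0.0228).

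The counts of the members were 7.89 ± 1.52 times those of the 77 nuclear subunits in WT (SD, n = 7) and 6.47 ± 0.742 times in Q175 (SD, n = 8). When the summed nuclear subunits served as the library size, so that the test asks whether a member changed more than they did, 3 of 10 members were called lower in Q175 against WT. These were mt-Nd1 (-0.36 ± 0.13, adjusted p = 0.0285), mt-Co2 (-0.29 ± 0.11, adjusted p = 0.0389) and mt-Co3 (-0.33 ± 0.13, adjusted p = 0.0444), and the other 7 lay between -0.15 and -0.34. On this scale all tested genes had a median of 0.51, 32.6% were called in either direction and 0.388% as lower. The count rests on single WT libraries: it was 0 without WT female 1, WT female 3, WT male 3 or WT male 4, it was 1 without WT male 2, any of the 4 Q175 females or Q175 males 2, 3 and 4, and it was 5 without WT female 2 and 7 without WT male 1. In these fits 3646 to 6720 of all genes were called, beside 6885 with all libraries. The cause was not tested.

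**Figure D3:**
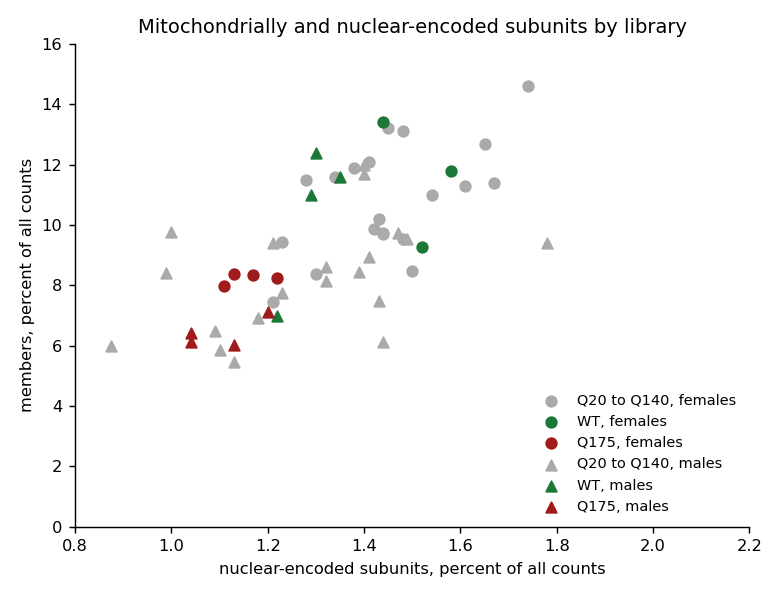
Share of all counts in each of the 55 libraries for the 77 nuclear-encoded subunits (x axis, percent) and the 10 members (y axis, percent), females as circles and males as triangles. Q175 libraries lie in the lower left of the plot, with nuclear shares of 1.04% to 1.22% and member shares of 6.02% to 8.37%.

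Factors that transcribe, process or replicate mitochondrial DNA differed less between Q175 and WT. Of the 9 transcription factors of mitochondrial DNA, 3 fell, at a list median of -0.25, and they were Mterf1a (-0.41 ± 0.12, adjusted p = 0.0183), Mterf3 (-0.28 ± 0.095, adjusted p = 0.0468) and Mterf4 (-0.5 ± 0.16, adjusted p = 0.0389) of the mitochondrial termination factor family. The mitochondrial RNA polymerase Polrmt was at -0.11 ± 0.1 (adjusted p = 0.574) and Tfam, which packages mitochondrial DNA and starts its transcription, at -0.25 ± 0.1 (adjusted p = 0.108). Of the 20 genes of mitochondrial RNA processing and stability, 4 fell, at a list median of -0.16. They were Slirp (-0.48 ± 0.1, adjusted p = 0.00219), the partner of Lrpprc in keeping mitochondrial messages stable, Tbrg4 (-0.35 ± 0.088, adjusted p = 0.00733), Grsf1 (-0.31 ± 0.086, adjusted p = 0.0145), which acts in mitochondrial RNA granules, and Fastk (-0.3 ± 0.083, adjusted p = 0.0172), an isoform of which is needed for the mt-Nd6 message. Lrpprc itself was at -0.12 ± 0.11 (adjusted p = 0.547).

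Of the 9 replication genes, Ssbp1, the single-strand DNA binding protein of mitochondria, fell (-0.42 ± 0.072, adjusted p = 0.000526). Of the 9 regulators of mitochondrial biogenesis, Esrra (-0.43 ± 0.12, adjusted p = 0.0165) and Gabpb1 (-0.23 ± 0.072, adjusted p = 0.0368) fell and Gabpa rose (0.27 ± 0.09, adjusted p = 0.0488), while Ppargc1a was at -0.082 ± 0.31 (adjusted p = 0.939). Of 12 genes read as a measure of mitochondrial content, 7 fell at a list median of -0.39, with Tomm22, an import receptor, at -0.41 ± 0.087 (adjusted p = 0.00227) and Vdac2, an outer membrane channel, at -0.36 ± 0.085 (adjusted p = 0.00451). The members' median of -0.81 lay below the median of each of these lists, a description without a test.

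Q175 was also compared with Q20, whose repeat is within the range of unaffected people; the comparison shares its Q175 libraries with the one above. Of the 10 members 6 fell, where 14.2% of all genes were called and 9.7% as lower, and the median log2 fold change was -0.56 beside 0.014 over all genes. mt-Cytb ranged over 10500 to 20300 CPM with a median of 15300 in Q20 and fell by 0.71 ± 0.19 in Q175 (adjusted p = 0.00805). mt-Co3 fell by 0.69 ± 0.18 (adjusted p = 0.00708), mt-Co2 by 0.62 ± 0.18 (adjusted p = 0.0135), mt-Nd1 by 0.58 ± 0.17 (adjusted p = 0.0158), mt-Co1 by 0.55 ± 0.18 (adjusted p = 0.0349) and mt-Atp6 by 0.56 ± 0.2 (adjusted p = 0.0476). Of the members not called, mt-Nd6 was at -0.47 ± 0.17 (adjusted p = 0.0611), mt-Nd4 at -0.47 ± 0.18 (adjusted p = 0.0762) and mt-Nd2 at -0.45 ± 0.18 (adjusted p = 0.0941). mt-Nd5 was farthest from a call, at 3790 to 7230 CPM in Q20 and -0.23 ± 0.17 (adjusted p = 0.404). For 0 members did all Q175 libraries lie below all Q20 libraries, beside 3.56% of genes. The nuclear subunits fell in 71 of 77 cases at a median of -0.64. Leaving out libraries with 100 CPM or more of epididymis and testis markers, 1 member was called, beside 15.5% of all genes. On FPKM values 0 were, beside 18.1% of all genes with 0.1 added and 17.8% with 1 added, and 0 with each library's trend over transcript length removed, beside 7.85%.

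Relative to the nuclear subunits the members' median was 0.024 for Q175 against Q20, and mt-Nd5 alone was called, as higher (0.35 ± 0.14, adjusted p = 0.0418), where 44.8% of all genes were called and 44.3% as higher. That call was lost without Q20 female 2, whose library number stands apart, and also without Q175 females 1 and 4, Q175 males 3 and 4, Q20 females 3 and 4 or Q20 males 3 and 4, each left out singly with a count of 0. Members over nuclear subunits was 6.34 ± 1.13 in Q20 (SD, n = 8), beside 6.47 ± 0.742 in Q175.

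Q20 and WT were compared to see whether the short repeat alone went with a change. In Q20 the members took 9.16 ± 1.76% of counts (SD, n = 8; lowest 6.14%, median 9.46%, highest 11.4%). All 10 values were negative, from -0.083 for mt-Cytb to -0.43 for mt-Nd5, and the groups overlapped. edgeR called 0 members, beside 0.753% of all genes, and 1 member, mt-Nd5, had an unadjusted p under 0.05 (0.018, adjusted p = 0.335) beside 10.2% of all genes; DESeq2 called 0, beside 2.52% of all genes, and limma-voom with quality weights 7, beside 9.58%. The nuclear subunits had a median of 0.083, of the opposite sign. Relative to them the members lay between -0.16 and -0.5, with 0 called beside 0.213% of all genes and 7 at an unadjusted p under 0.05 beside 5.95% of all genes. The count was 1 without WT male 1, and it was also 1, beside 0.354% of all genes, when libraries rich in epididymis and testis markers were left out.

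**Figure D4:**
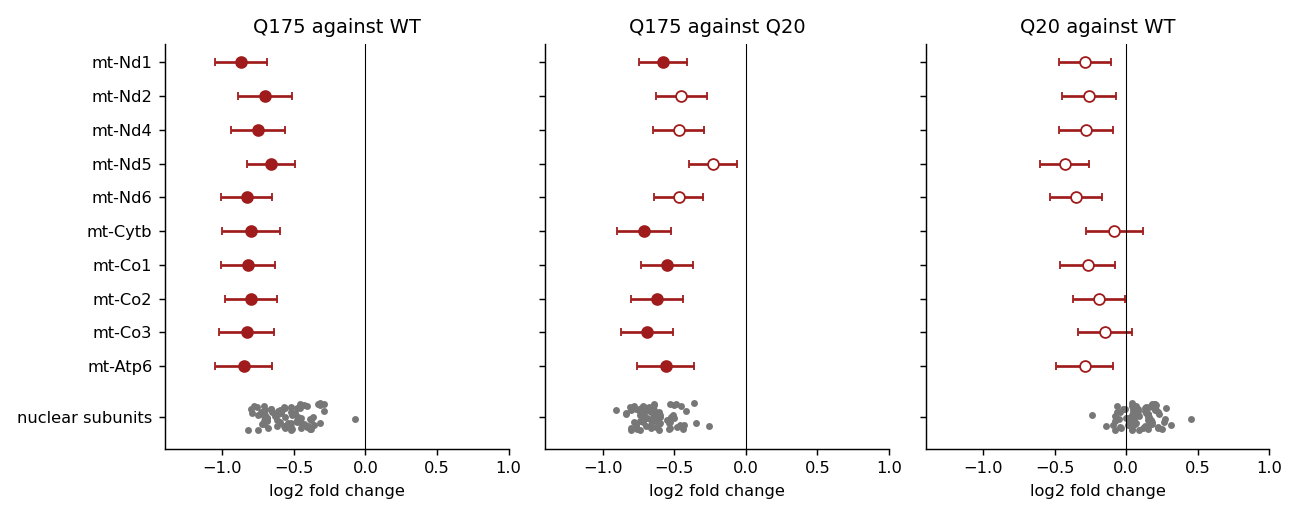
Log2 fold changes of the 10 members with their SE (filled where the adjusted p is under 0.05) and, in grey without errors, of the 77 nuclear-encoded subunits, in the 3 comparisons named above the panels. All 10 members are filled for Q175 against WT and 6 for Q175 against Q20, while for Q20 against WT the members lie below 0 and the nuclear subunits have a median of 0.083.

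The longer alleles below Q175 did not differ from Q20 at the threshold. The members took 10.8 ± 2.54% of counts in Q80 (5.47% to 13.2%), and 9.15 ± 2.61% in Q92 (5.99% to 12.7%; SD, n = 8 each). They took 8.52 ± 1.35% in Q111 (5.87% to 10.2%), and 10.2 ± 2.3% in Q140 (7.45% to 14.6%; SD, n = 8 each). All 4 ranges overlapped that of Q20. The log2 fold changes against Q20 ran from 0.084 to 0.29 for Q80, from -0.057 to -0.16 for Q92, from -0.18 to -0.25 for Q111 and from 0.064 to 0.22 for Q140, with SE of 0.17 to 0.2. edgeR, DESeq2 and limma-voom each called 0 members in these 4 comparisons, and 0 members had an unadjusted p under 0.05. Among all genes edgeR called 0% for Q80, 6.11% for Q92, 0% for Q111 and 0% for Q140, and 7.96%, 18%, 6.94% and 10.3% had an unadjusted p under 0.05.

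A slope of log2 level on CAG length, per 100 repeats, was fitted across the 6 repeat lengths. Over Q20 to Q175 it was negative for all 10 members, from -0.14 ± 0.099 for mt-Nd5 to -0.35 ± 0.11 for mt-Cytb, and only mt-Cytb was called (adjusted p = 0.0424), where 8.31% of all genes were called and 5.66% as falling. DESeq2 called 5 members, beside 12.7% of all genes, and limma-voom with quality weights 9, beside 35.4%. All Q175 libraries lie in the run of 15 library numbers and all other knock-in libraries outside it, so that in this slope the longest repeat and the run cannot be told apart. Of the nuclear subunits 59 of 77 fell with length, at a median of -0.31. Over Q20 to Q140 the members' slopes lay between -0.047 and 0.065, with SE of 0.13 to 0.16, and 0 were called by edgeR, DESeq2 or limma-voom, beside 0.00474% of all genes by edgeR. At an unadjusted p under 0.05 there were 0 members beside 7.61% of all genes. The single call by edgeR rests on many libraries, and calls over all genes ranged from 1030 to 2446 in the fits named next, beside 1755 with all libraries. It was lost without Q111 female 1, Q140 females 1, 2 and 3, Q140 males 1 and 2, Q175 females 1, 2, 3 and 4, Q175 males 2, 3 and 4, Q20 females 1, 2 and 4, Q20 males 1, 2 and 4, Q80 female 3 or Q80 males 1, 3 and 4, each left out singly with a count of 0. The count was 2 without Q140 male 3, Q20 male 3 or Q92 male 3, it was 3 without Q140 male 4, Q20 female 3 or Q92 female 3, it was 4 without Q80 male 2 and 6 without Q140 female 4.

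On average over the genotypes, males had less RNA of every member than females. In WT alone the mean of mt-Nd5 was higher in males (7390 CPM) than in females (7290 CPM). Members over nuclear subunits was also higher in WT males (mean 8.09) than in WT females (mean 7.62). In both cases the WT sexes overlapped. The members took 10.5 ± 1.94% of counts in females (SD, n = 27; lowest 7.45%, median 10.2%, highest 14.6%) and 8.35 ± 2.07% in males (SD, n = 28; lowest 5.47%, median 8.26%, highest 12.4%), and the sexes overlapped. Averaged over the 7 genotypes, all 10 members were called lower, where 46.3% of all genes were called and 18.3% as lower, and the median over all genes was 0.065. mt-Atp6 had the largest difference, with a median of 5760 CPM in females (3220 to 9610) and 3730 CPM in males (1970 to 6640), a log2 fold change of -0.63 ± 0.11 (adjusted p = 8.22e-06). mt-Co1 followed at -0.55 ± 0.098 (adjusted p = 1.9e-05), from a median of 42700 CPM in females (23000 to 67500) to 30300 CPM in males (16700 to 51000). For mt-Atp6 and mt-Co1 the lowest female value was that of Q140 female 1 and the highest male value that of Q140 male 4. Both libraries go against their sex labels, and Q140 female 1 also set the lowest female share of 7.45%. The smallest differences were those of mt-Nd5 (-0.25 ± 0.091, adjusted p = 0.0206) and mt-Nd6 (-0.25 ± 0.094, adjusted p = 0.0248). The remaining 6 members lay between -0.35 for mt-Nd1 and -0.48 for mt-Co3. All 10 were also called without the pair of Q140 libraries that go against their sex labels, and with their sexes exchanged, beside 49.3% and 50.2% of all genes.

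By genotype, the male mean of the members' share over the female mean was lowest for Q92 (0.653) and highest for WT (0.916), with Q80 at 0.733, Q20 at 0.752, Q175 at 0.78, Q111 at 0.803 and Q140 at 0.898. As labelled, the sexes did not overlap in Q20 and Q175 and overlapped in the other 5 genotypes. The Q140 values rest on the 2 libraries that go against their sex labels. With their sexes exchanged, Q140 females covered 9.73% to 14.6% and Q140 males 7.45% to 9.41%, without overlap, and the Q140 ratio was 0.716. With both left out it was 0.748, again without overlap. The males of the genotypes also differed in tissue content. Markers of epididymis and testis summed to 16800, 132, 5.6 and 8010 CPM in the Q92 males and to no more than 26.6 CPM in any WT male. In Q20 a single male reached 6390 CPM, and the other Q20 males did not exceed 3.04 CPM. The Q80 males were at 17500, 2420, 171 and 3.93 CPM. Those labelled as Q140 males were at 26200, 127, 800 and 0.258 CPM. The Q175 males were at 897, 498, 1700 and 2840 CPM, and the Q111 males did not exceed 30.1 CPM. The part of this tissue in the ratios was not tested. A test of whether the sex difference varied with genotype called 0 members with edgeR, beside 2.06% of all genes, with unadjusted p between 0.416 and 0.742 for the members and under 0.05 for 15.4% of all genes; DESeq2 called 0, beside 6.69% of all genes, and limma-voom with quality weights 8, beside 40.6%. Of the nuclear subunits 69 of 77 were lower in males, at a median of -0.28, among them Cox7b of complex IV (-0.46 ± 0.077, adjusted p = 6.87e-06). Relative to the nuclear subunits 4 members were lower in males, mt-Atp6 (-0.33 ± 0.071, adjusted p = 0.000145), mt-Co1 (-0.24 ± 0.069, adjusted p = 0.00213), mt-Co3 (-0.18 ± 0.066, adjusted p = 0.0149) and mt-Nd4 (-0.16 ± 0.072, adjusted p = 0.0447), where 67.8% of all genes were called and 5.33% as lower.

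Markers of other cell types and tissues moved with sex as well. The markers of epididymis and testis rose in males for 7 of 9 and summed to 0.0705 to 16.9 CPM in females and to 0.258 to 26200 CPM in males, with a male median of 78.4 CPM. Without the 2 Q140 libraries that go against their sex labels the sums were 0.0705 to 4.74 CPM in females and 0.803 to 26200 CPM in males, with a male median of 127 CPM. Of the 10 skeletal muscle markers 9 were lower in males, with sums of 6.42 to 8130 CPM in females and 8.18 to 6280 CPM in males, and 6 of the 8 brown and beige markers were lower, with sums of 19.9 to 191 CPM in females and 12.2 to 49.1 CPM in males. Of the 12 adipocyte markers 4 were lower, with sums of 23000 to 49900 CPM in females and 4980 to 52400 CPM in males. All 5 erythroid markers were higher in males, at a median of 1.13 on the log2 scale, with sums of 381 to 1000 CPM and a median of 597 CPM in females and of 277 to 2450 CPM and a median of 1250 CPM in males. Of the 7 lymphocyte markers 4 were higher in males, with sums of 5.88 to 17.9 CPM in females and 4.7 to 142 CPM in males. Without libraries at 100 CPM or more of epididymis and testis markers, a fit with genotype and sex as terms called 4 members lower in males. Beside them 27.2% of all genes were called in either direction. This filter dropped only males, among them all Q175 males and every labelled Q140 male except male 4. It kept the 2 Q140 libraries that go against their sex labels, so that the lower count cannot be read as an effect of tissue content alone. The part of these cells and tissues in the sex difference was not tested.

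Genes that act on mitochondrial messages were partly lower in males. Of the 20 processing and stability genes 14 fell and 0 rose, at a list median of -0.14, with Supv3l1, the helicase of mitochondrial RNA decay, at -0.23 ± 0.051 (adjusted p = 0.000233) and Grsf1 at -0.21 ± 0.045 (adjusted p = 0.000232). Of the 9 transcription factors 5 fell, at a list median of -0.21, with Tfb2m, which opens the promoter for the polymerase, at -0.34 ± 0.061 (adjusted p = 1.82e-05), while Tfam was at 0.046 ± 0.052 (adjusted p = 0.501). Of the biogenesis regulators Ppargc1b (-0.43 ± 0.14, adjusted p = 0.0128) and Esrra (-0.25 ± 0.063, adjusted p = 0.00125) fell and Esrrg rose (3 ± 0.57 on the log2 scale, adjusted p = 4.26e-05).

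Over all libraries mt-Co1 made up 37.8 ± 1.62% of the members' counts and mt-Nd6 1.73 ± 0.197% (SD, n = 55). With the summed members as the library size, 0 members were called for Q175 against WT, at -0.07 to 0.13 and with 0 at an unadjusted p under 0.05, although 54.5% of all genes were called on this scale and 62% had such a p. mt-Nd5 made up 6.54 ± 0.782% in WT (SD, n = 7), 5.66 ± 0.418% in Q20 (SD, n = 8) and 7.1 ± 0.825% in Q175 (SD, n = 8). The Q20 libraries covered 5.16% to 6.35% and the Q175 libraries 6.0% to 8.19%, so that they met only at the edge, and mt-Nd5 was the only member called for Q175 against Q20 (0.32 ± 0.093, adjusted p = 0.0126), where 26.8% of all genes were called and 26.4% as higher. By run of library numbers the mt-Nd5 share was 5.63 ± 0.671% in the 39 libraries, 6.84 ± 0.828% in the 15 and 5.16% in Q20 female 2, so that run and genotype cannot be told apart here. mt-Cytb ran the other way, at 14.4 ± 0.534% in WT, 16.1 ± 0.861% in Q20 and 14.4 ± 0.316% in Q175. For Q20 against WT 0 members were called on this scale, with 0 at an unadjusted p under 0.05, beside 0.185% and 6.82% of all genes.

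Between the sexes, 3 members made up more and 1 less of the members' RNA in males, where 77.4% of all genes were called, 74.5% as higher and 2.96% as lower. mt-Nd6 made up 1.42% to 1.89% with a median of 1.57% in females and 1.54% to 2.32% with a median of 1.81% in males, a log2 difference of 0.21 ± 0.044 (adjusted p = 4.68e-05). mt-Nd5 made up 4.26% to 7.12% with a median of 5.37% in females and 4.63% to 8.19% with a median of 6.27% in males, a log2 difference of 0.21 ± 0.05 (adjusted p = 0.000282), and mt-Nd1 one of 0.12 ± 0.043 (adjusted p = 0.00986). mt-Atp6 made up 4.46% to 5.97% with a median of 5.08% in females and 3.24% to 5.26% with a median of 4.67% in males, a log2 difference of -0.16 ± 0.044 (adjusted p = 0.00106). For all 4 of these members the sexes overlapped. Without libraries at 100 CPM or more of epididymis and testis markers, which leaves fewer males, 2 members were called, beside 48% of all genes.

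**Figure D5:**
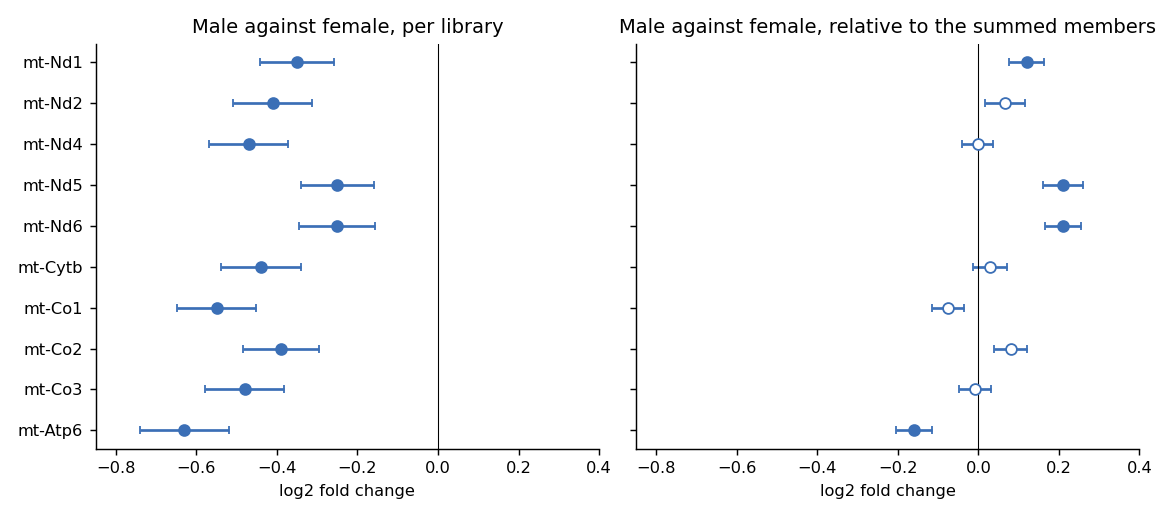
Log2 fold change of males against females, averaged over the genotypes, with its SE for each of the 10 members (filled where the adjusted p is under 0.05), per library left and relative to the summed members right. All 10 are below 0 on the left, from -0.25 to -0.63, and on the right mt-Nd1, mt-Nd5 and mt-Nd6 lie above 0 and mt-Atp6 below it.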

How the data were processed

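The authors deposited expected counts (also called estimated counts, per gene and library) and FPKM values for 43432 Ensembl genes in 55 libraries; per the labels, RNA came from the Qiagen miRNeasy kit and went into Illumina libraries. CASAVA 1.8.2 is the only tool in the submitters' processing notes, and no source used here gives the aligner, counter, build or annotation. Of the nonzero counts 33.7% were not within 1e-06 of a whole number, and all were rounded. Symbols, lengths and sequences came from GENCODE M21, which held 42548 identifiers. No label states outright that the libraries of a group came from separate animals, so p-values measure the spread between these samples.

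The main test was edgeR 4.0.16 in R 4.3.3 (TMM scaling, filterByExpr over the 14 groups, robust quasi-likelihood fit, 1 mean per group), with calls where the Benjamini-Hochberg adjusted p over 21113 genes was under 0.05. Relative fits took the summed nuclear subunits or the summed members as library size. CPM used TMM-scaled sizes. Adjusted p values and SE are edgeR's unless another tool is named. The main edgeR fit was also run on simulated counts of a fixed spread, without effects of sex, lane or tissue. The relative fits and the other tools were not run on them.

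The members, lists and tests were chosen with earlier results of these data known. Named genes are all members, up to 4 called genes of each list, those of the lists on mitochondrial DNA called for Q175 against WT, and the 8 genes closest in pattern; Lrpprc, Polrmt, Tfam, Ppargc1a and the uncalled genes of mitochondrial DNA were chosen after their values were seen. Alternatives used DESeq2 1.42.0 and limma 3.58.1 (voom with quality weights on counts; a trended fit to log2 FPKM after adding 0.1 or 1). Chosen after seeing the data were 4 of them: adding pseudogene counts, leaving out Q20 female 2, reading the relative fits for more comparisons, and exchanging the sexes of 2 Q140 libraries in the ratio of the members' share. Fits without 1 library reused the full fit's dispersion trend.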

Additional observations from a re-analysis of the deposited data

Results flagged for a closer look

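In 156 sets of 4 libraries (10 members, their summed share and its ratio to nuclear subunits, in 13 groups of genotype and sex), 13 sets held a library far from the other 3 by Dixon's test, where chance gives about 1 in 20. The sets are not independent, since the members moved together and the same library can be flagged for several of them. The count therefore cannot be set against that rate as an excess. mt-Nd1 was at 4460 CPM in Q175 female 3 beside 4800 to 4840 CPM in the other Q175 females, and at 6780 CPM in Q92 male 3 beside 3630 to 3950 CPM in the other Q92 males. mt-Nd2 was at 4550 CPM in the same Q92 male 3, beside 2830 to 2950 CPM, and at 1980 CPM in Q80 male 2, beside 5510 to 6200 CPM. Q92 female 3 was low for 3 members, with mt-Nd4 at 8130 CPM beside 13200 to 14000, mt-Nd6 at 1220 CPM beside 2060 to 2180 and mt-Cytb at 12400 CPM beside 19900 to 20600. Q20 male 3 was low for mt-Cytb, at 10500 CPM beside 13600 to 14000, and for mt-Co2, at 4070 CPM beside 4770 to 4850. Q175 male 1 was high for mt-Co1, at 23400 CPM beside 18100 to 18800, and for mt-Co2, at 3740 CPM beside 2840 to 2950. mt-Atp6 was low in Q111 male 1, at 2380 CPM beside 3760 to 3920, and in WT male 1, at 3390 CPM beside 5640 to 5860.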

How the results depend on the processing

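The counts of members called for Q175 against WT (10) and males against females (10) held within 1.5 times in most settings, and 0 called values turned their direction; uncalled values near 0 changed sign in some settings, among them mt-Nd5 for Q175 against Q20, whose highest value was 0.011. For Q175 against WT the count was 5 on FPKM with 0.1 or 1 added and 0 with the lane code as a factor, a code that can stand for different lanes. On FPKM with 0.1 added the members' median was -0.58 while that of all genes moved to 0.17, and 86.0% of all called genes were higher, beside 32.0% on counts; without mitochondrial DNA genes in the scaling it was 42.5%. For Q175 against Q20 these shares were 84.9% on FPKM, 12.9% with the length trend removed and 42.3% without mitochondrial DNA genes, beside 31.9%; for the slope 87.8%, 13.5% and 46.8%, beside 31.9%; and for males against females 80.6% on FPKM, beside 60.4%. Leaving out 1 library gave 9 to 10.

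For Q175 against WT in males (7 called) the count was 3 with RLE scaling, no robust step or a replicate block, and 0 at an adjusted p under 0.01, with upper-quartile scaling, without mitochondrial DNA genes in the scaling, without small and ribosomal RNAs, with the length trend removed, with no low-count filter, on FPKM with either value added and with the lane code; DESeq2 and voom gave 10, and leaving out 1 library gave 0 to 10. In females (0, beside 0.199% of all genes) it was 10 with voom, beside 19.7%, and 7 with only the genotypes compared, beside 9.42%. For Q175 against Q20 (6) it was 2 at 0.01, 3 with the lane code, 1 without the libraries rich in epididymal markers and 0 on FPKM or with the length trend removed; leaving out 1 library gave 4 to 7. For Q20 against WT and for the sex difference by genotype voom gave 7 and 8 in place of 0, beside 9.58% and 40.6% of all genes.

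For the slope over Q20 to Q175 (1) the count was 2 with a replicate block, 3 at a mean of 1 CPM or with the sexes of the 2 Q140 libraries exchanged, 5 with DESeq2 and 9 with voom, beside 8.55%, 12.9%, 8.73%, 12.7% and 35.4% of all genes in turn and 8.31% for the value in the report. It was 0 at 0.01, with upper-quartile scaling, without mitochondrial DNA genes in the scaling, without small RNAs, with the length trend removed, no filter, FPKM, no robust step, the lane code, only these genotypes, and without the 2 Q140 libraries, the libraries rich in epididymal markers or Q20 female 2. Leaving out 1 library gave 0 to 6. Without the libraries high in these markers, all of them from males, males against females gave 4, beside 27.2% of all genes.

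Relative to nuclear subunits, Q175 against WT (3, beside 32.6% of all genes) gave 0 at 0.01 or with the lane code, 1 with no filter or without the libraries rich in epididymal markers, 5 at a mean of 1 CPM (45.5%) or with the Q140 sexes exchanged (34.7%) and 7 with only these genotypes (69.3%); leaving out 1 library gave 0 to 7. Q175 against Q20 (1) gave 0 at 0.01, with no filter or without Q20 female 2 and 2 without the libraries high in the markers, which gave 1 for Q20 against WT (0) and 2 for the sexes (4, and 2 at 0.01). Relative to the summed members, Q175 against Q20 (1) gave 0 at 0.01 and 0 without the libraries high in the markers, and the sexes (4) gave 2. The causes were not tested. Replicate numbers were not taken as pairs of animals, although correlations between libraries cannot exclude a pairing. Of 7 pairs of Q175 and WT libraries with the same number and sex, 1 correlated above 0.1 (range -0.14 to 0.37). The replicate block left 10 for Q175 against WT and 10 for the sexes. Every member had at least 38116 counts in every library, and the spread between libraries set the errors.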

Other observations

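The ribosomal RNAs of mitochondria, mt-Rnr1 and mt-Rnr2, are transcribed from the same DNA but are no members. Their level differed between the sets of library numbers, which also divide the genotypes. Together these RNAs took a mean of 0.163% of counts in the run of 39 libraries, 0.0604% in the run of 15 and 2.79% in Q20 female 2. For Q175 against WT, which lies within the run of 15, mt-Rnr1 was at -0.84 ± 0.51 (adjusted p = 0.313) and mt-Rnr2 at -0.68 ± 0.53 (adjusted p = 0.459) on the log2 scale.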
